A study of Homo sapiens with 16 samples.

Results

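Intermediate filaments are rope-like cytoskeletal polymers that let cells withstand mechanical stress, and their subunits differ between cell types. Progenitors of the brain make nestin and vimentin, astrocytes add GFAP and neurons make neurofilaments, and glioma cells can carry several of these together. The 10 genes described here are NEFL, NEFM and NEFH, which encode the light, medium and heavy neurofilament subunits of axons, INA, which encodes the neuronal filament protein alpha-internexin, NES, which encodes nestin of neural progenitors, VIM, which encodes vimentin, GFAP, which encodes the glial fibrillary acidic protein of astrocytes, SYNM, which encodes synemin, and the microtubule-binding genes DCLK1 and DCX. DCLK1 is a kinase with doublecortin domains and DCX is doublecortin itself, a marker of migrating young neurons. They were chosen by name, and each has a row in the count tables, which list 20314 genes for U251 and 20626 for U343.

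The study asked how a miR-137 mimic alters mRNA levels, and the association of mRNAs with the poly(A) binding protein PABP, in U251 and U343, which are human glioblastoma cell lines. Cells were reverse transfected with the miR-137 mimic or, as the control, with a negative control mimic, each at a concentration of 25 nM. RNASeq measured total RNA of cells harvested after 48 hours, and RIPSeq measured RNA recovered with a mix of PABP antibodies. Each of the 8 groups of cell line, assay and transfection holds 2 libraries, 16 in all. The labels do not say whether the 2 libraries came from separate cultures, so p-values measure only the spread between these libraries. The cDNA of U251 was made with random hexamers and separate enzymes and that of U343 with a TotalScript kit, a difference that cannot be told apart from the cell line. Depth ranged from 10156675 to 18224061 counted reads in U251 RNASeq, from 22359794 to 30731476 in U251 RIPSeq, from 37952273 to 45134766 in U343 RNASeq and from 37736206 to 45055184 in U343 RIPSeq.

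A microRNA recognises mRNAs mainly through its seed, bases 2 to 8 from the 5′ end, which pair with complementary sites that are usually in the 3′ untranslated region. miR-137 is abundant in brain and is studied as a regulator of neuronal differentiation and as a tumor suppressor in glioma. The mature sequence is shown because it is the agent compared in every experiment, in the form of the RefSeq annotation of GRCh38.p14, where it lies at chr1:98046091-98046113 on the minus strand. The sequence of the mimic itself is not given in the labels. The seed is in capitals.
hsa-miR-137-3p: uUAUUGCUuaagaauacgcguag
A full seed match in an mRNA therefore reads AGCAAUA, written 5′ to 3′. Of 2370 mature human miRNAs in that annotation, 1 has this seed, miR-137-3p itself. The row for the MIR137 gene held 0 to 5 reads in each library, so these counts cannot check which mimic a library received.

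The lines differed in their filament genes in the control libraries. Levels are in CPM, the reads of a gene normalised to the library total as scaled by edgeR's TMM factors within each experiment, given as mean ± SD of 2 libraries, and they compare libraries for a gene, not genes with each other. In the RNASeq control libraries NEFL had 23709 and 25798 reads in U251 and only 4 and 5 reads in U343. The U251 level was 13915-fold higher by summed reads (exact 95% interval 7330 to 30433, counting error only). GFAP showed the opposite order, with 488 and 537 reads in U251 and 207285 and 178428 in U343, a difference of 7.22 ± 0.163 (SE) on the log2 scale. The filter of edgeR on low counts kept 7 members, and all 7 differed between the lines at an adjusted p under 0.05 (quasi-likelihood test, Benjamini-Hochberg adjustment over 14787 genes), where 84.8% of all tested genes did, 39.9% lower and 44.9% higher in U343. NES was 2.94-fold higher, SYNM 9.79-fold higher and VIM 1.34-fold higher in U251, and DCLK1 was 4.23-fold higher in U343. The VIM difference was the smallest of the 7, with an adjusted p of 0.0277 that became 0.0689 under upper-quartile normalization, 0.160 without U343 control replicate 1 and 0.0748 without U343 control replicate 2. DCX had 0 reads in both U251 control libraries and 58 and 34 in U343, which is at least 12.1-fold higher against a floor of 3 reads over the U251 group. DCX and NEFL passed the filter only through the line where they were high.

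**Figure D1:**
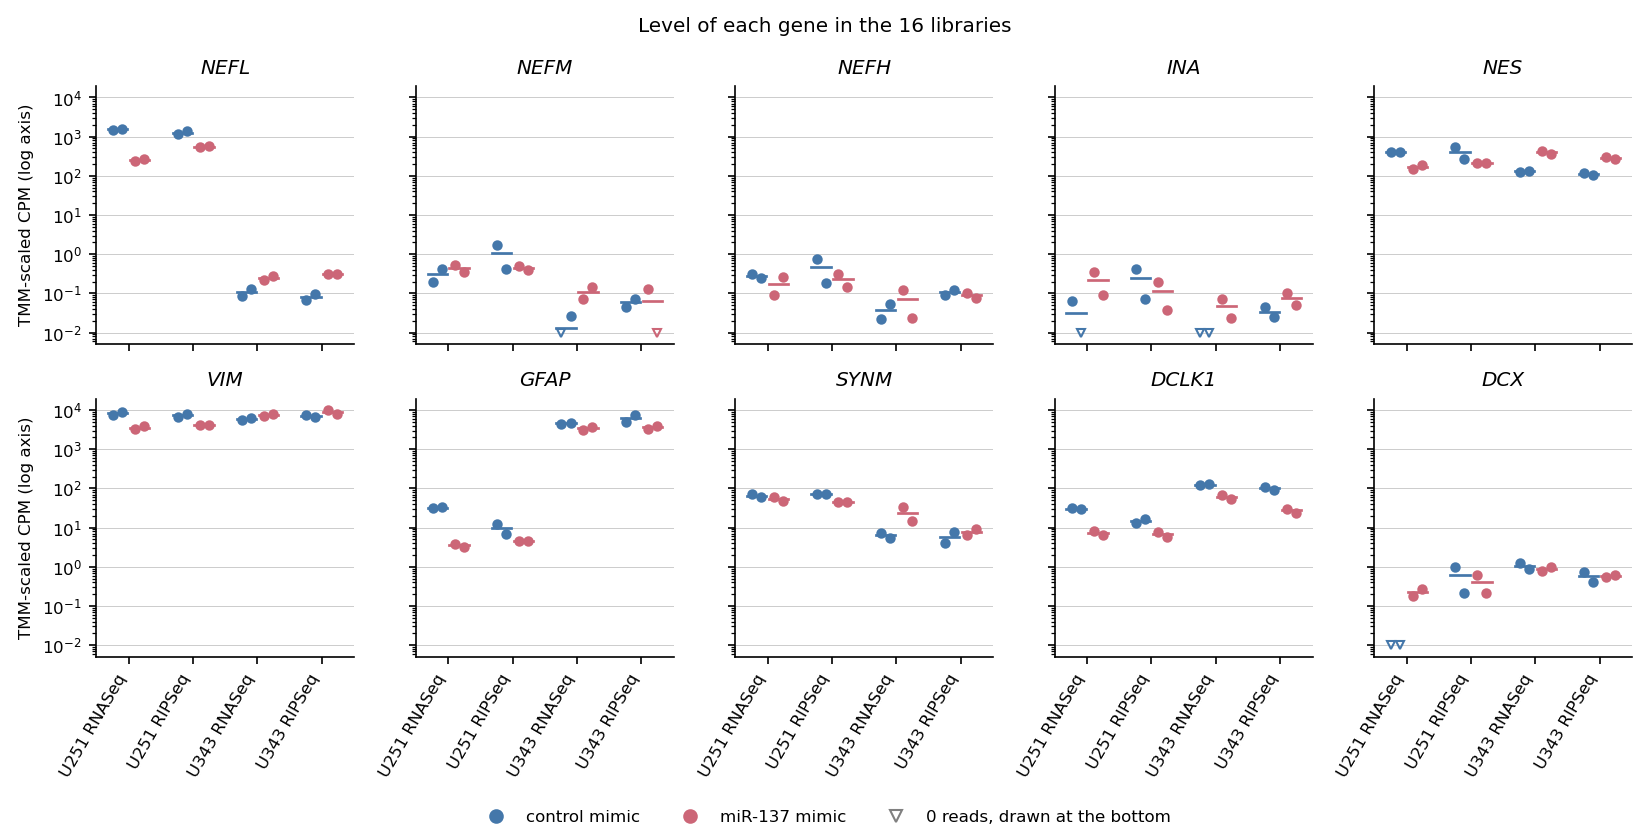
Level of each of the 10 genes in TMM-scaled CPM on a log axis, for the 4 experiments, with the control mimic in blue and the miR-137 mimic in red. Each point is a library, short lines are means of 2 libraries, and open triangles are libraries with 0 reads. NEFL lies at 240.4 CPM or more in the U251 libraries and at 0.307 CPM or less in those of U343, GFAP has the reverse order of the lines, and NEFM, NEFH and INA lie below 2 CPM throughout.

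The other neuronal filament genes had few reads in either line. NEFM had 0 to 40 reads per library, NEFH 1 to 18 and INA 0 to 10. NEFM and NEFL are neighbours, at chr8:24827179-24832511 and chr8:24864388-24870048 in the hg18 coordinates of the files, with 31876 bases and no other listed gene between them, and in the U251 RNASeq controls the pair had 10 and 49507 summed reads. None of the 10 genes overlapped another listed gene. Pseudogenes named after NEFL, NEFM, NEFH and VIM are annotated in RefSeq, and how reads that also match them were counted is not given in the sources used here. VIM and SYNM also have annotated antisense RNAs, and whether the counting used strand is not given in the sources used here.

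Most astrocyte markers, but not all, passed a low bar of 1 CPM in the controls of each line. Of 7 astrocyte markers, 5 reached 1 CPM in the RNASeq controls of each line, led by SOX9 at 113 CPM in U251 and GJA1 at 286 CPM in U343. S100B in U251, at 1.75 CPM, and SLC1A2 in U343, at 1.90, lay little above that bar. AQP4, a defining astrocyte water channel, had 0 reads in the U251 RNASeq controls. ALDH1L1 was at 0.0306 CPM in the U251 RNASeq controls and 0.125 in those of U343, where SLC1A3 was at 0.179. The 6 listed neuron markers summed to 38.2 to 38.8 CPM in U251 RNASeq controls, mostly SYT1, and to 5.35 to 5.36 in U343. Oligodendrocyte lineage and microglial markers summed to at most 6.22 CPM in any RNASeq library, and endothelial markers to 25.8 to 37.9 CPM in U343 RNASeq and at most 1.08 in U251 RNASeq. With miR-137 the neuron markers summed to 28.7 to 36.4 CPM in U251 RNASeq and to 13.0 to 16.4 in U343 RNASeq, where SYP, which encodes the synaptic vesicle protein synaptophysin, led. The astrocyte markers then summed to 294 to 321 CPM in U251 RNASeq, against 278 to 296 in the controls, and to 267 to 465 in U343 RNASeq, against 317 to 415. The part of these shifts in the results that follow was not tested.

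Interferon-induced genes, which mark the antiviral response of a cell, were high in 7 of the 8 miR-137 libraries. Summed over 12 interferon-induced genes, the level was 112 to 239 CPM in the 8 control libraries and 10294 to 13570 CPM in those 7. U343 RNASeq miR-137 replicate 1 stood apart, at 247 CPM, while replicate 2 of that group reached 13570. In that first replicate STMN4, which encodes a neuronal stathmin, had 488 reads against 2 and 0 in the controls, and SYP had 575 against 44 and 41. The members called in U343 RNASeq are therefore given with and without that library. The related lists and the comparisons of U343 RNASeq with RIPSeq include it unless stated. The 2 U251 RIPSeq control libraries also stood apart from each other. Their counts gave a chi-square of 216 on average over genes, where counting error alone gives about 1, against 2.46 between the miR-137 libraries of that experiment, 175 between the miR-137 libraries of U343 RNASeq and 10.3 to 21.9 in the other 5 groups.

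In U251 RNASeq, the NEFL, GFAP, DCLK1, NES and VIM mRNAs fell with miR-137. Of the 10 members, 6 passed the filter and 5 were lower, where 57.7% of all 13052 genes tested changed in either direction and 29% were lower. Over all genes, 3780 were lower and 3749 higher, and with upper-quartile normalization 3001 and 4588, while the member counts stayed at 5 lower. NEFM, NEFH, INA and DCX had too few reads to be tested. In bulk RNA, a change per cell and a change in the mixture of cells cannot be told apart.

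NEFL had 23709 and 25798 reads in the U251 RNASeq controls and 2666 and 2962 with miR-137. The groups were far apart, at 1545 ± 44.9 and 252 ± 15.8 CPM. The log2 fold change was -2.62 ± 0.152 (SE), 6.14-fold lower, with an adjusted p of 1.62e-08 in edgeR.

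GFAP had 488 and 537 reads in the controls and 42 and 37 with miR-137. No library of either group came near the other group. This was the largest fold among the members, 9.03-fold lower (log2 fold change -3.18 ± 0.181, adjusted p = 1.33e-08 in edgeR), from a control level far below that of U343.

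DCLK1 had 495 and 478 reads in the controls and 92 and 73 with miR-137. Its level fell from 30.4 ± 1.68 to 7.38 ± 1.29 CPM, 4.12-fold lower (log2 fold change -2.04 ± 0.172, adjusted p = 5.04e-07 in edgeR). The groups did not overlap.

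NES had 6390 and 6563 reads in the controls against 1703 and 2101, and was 2.38-fold lower, at 404 ± 4.76 and 169.9 ± 23.2 CPM (adjusted p = 6.68e-06 in edgeR). VIM, the general mesenchymal filament gene, had 120083 and 142527 reads against 37255 and 43106 and was 2.28-fold lower (adjusted p = 8.99e-05 in edgeR). The miR-137 libraries were also the shallower ones, so the raw reads overstate the folds, and the CPM values of 8187 ± 740.0 and 3591 ± 328 for VIM take the depth into account. SYNM, with 65.8 ± 6.79 and 54.0 ± 6.96 CPM, did not pass the test (log2 fold change -0.28 ± 0.141, adjusted p = 0.0985 in edgeR). The 8 filament genes together took 0.899% and 0.968% of all counted reads in the controls and 0.413% and 0.480% with miR-137.

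The study's own rule gave fewer of them. It pairs each control library with each miR-137 library, 4 pairs in all, and asks in every pair for an adjusted p under 0.001 by Fisher's exact test and for odds that are over 2 times apart. By this rule NEFL, GFAP and DCLK1 were lower in U251 RNASeq, 3 members where 2.21% of the 20314 genes were lower and 6.14% higher by the mirrored rule. The odds ratios over the 4 pairs ran from 4.82 to 5.46 for NEFL, from 7.06 to 8.09 for GFAP and from 2.93 to 4.08 for DCLK1. With library totals scaled by TMM factors, NES and VIM also met the rule, 5 members in all. Over all genes 793 were then lower and 793 higher, against 448 and 1248 with unscaled totals.

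In U251 RIPSeq all 6 well covered members had lower means with miR-137, but none passed the edgeR test. The test called 0 of 8 tested members, and 0 with DESeq2, where 1.21% of 14087 genes were called, 0.263% lower and 0.944% higher, and 5 members had an unadjusted p under 0.05, as did 20.1% of all genes. The U251 RIPSeq controls are the pair with the large spread described above.

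NEFL had 27303 and 37964 reads in the U251 RIPSeq controls and 14420 and 15313 with miR-137. At 1264 ± 133 and 557 ± 7.94 CPM the groups did not overlap, and the log2 fold change of -1.18 ± 0.182 had an adjusted p of 0.0719 in edgeR. NEFL was also the member that met the pairwise rule there, with odds ratios of 2.13 to 2.17, where 1.49% of genes were lower and 3.47% higher. Without control replicate 2, NEFM, NES and GFAP met it too, and without miR-137 replicate 1 DCLK1 did. More of all genes met it in those settings as well.

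DCLK1 had 304 and 468 reads in these controls and 198 and 161 with miR-137 (log2 fold change -1.14 ± 0.286, adjusted p = 0.144 in edgeR). VIM had 152808 and 224847 against 110222 and 116227 (-0.78 ± 0.154, adjusted p = 0.103). SYNM had 1699 and 2070 against 1188 and 1208 (-0.71 ± 0.232, adjusted p = 0.205). For these 3 genes, as for NEFL, NES and GFAP, both miR-137 libraries lay below both controls in CPM. How many of all genes had that order was not counted, so the order is not read as a result about these genes.

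NES and GFAP carried the spread of the controls. NES had 535 and 262 CPM in the controls and 217 and 215 with miR-137, and GFAP had 12.3 and 6.94 against 4.55 and 4.45. With all 8 U251 libraries in 1 edgeR fit, which shares the spread across groups, 5 members were lower (NEFL, VIM, GFAP, SYNM and DCLK1). That fit called 16.6% of all genes, 1213 lower and 1142 higher, against 1.21% in the separate fit. Without control replicate 1 the test called 6 members, and without control replicate 2 it called 10 of 10, including NEFH and INA, which had 1 to 18 reads in each library of that experiment. In these fits 68.1% and 74.4% of all genes were called, so the member counts moved with the background, and the miR-137 pair alone set the spread.

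In U343 the pattern was another one: NES rose, DCLK1 fell and NEFL had at most 12 reads per library. In U343 RNASeq, 3 of 6 tested members changed, NES and SYNM higher and DCLK1 lower, where 20% of 15088 genes changed, 11.7% lower and 8.31% higher.

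NES had 5926 and 5175 reads in the U343 RNASeq controls and 17908 and 15549 with miR-137. It rose 2.99-fold, from 132 ± 5.85 to 396 ± 41.4 CPM (log2 fold change 1.58 ± 0.119, adjusted p = 0.00711 in edgeR). In the library whose interferon genes stayed at the control level, NES was at 425 CPM, above the 367 CPM of replicate 2, and both lay above the controls.

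DCLK1 had 5540 and 4857 reads in the controls and 2897 and 2256 with miR-137. It was 2.03-fold lower, from 124 ± 5.82 CPM in the controls (log2 fold change -1.02 ± 0.154, adjusted p = 0.0199 in edgeR). The library with the control-level interferon genes had 68.8 CPM and the other 53.2, both below the controls.

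SYNM had 341 and 209 reads against 1392 and 637, and rose 3.72-fold (log2 fold change 1.89 ± 0.432, adjusted p = 0.0475 in edgeR). Its miR-137 libraries were far apart, at 33.0 CPM in the library with control-level interferon genes and 15.0 in the other, both above the controls at 7.38 and 5.51.

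GFAP and VIM did not pass in this experiment. GFAP had 207285 and 178428 reads in the controls and 134226 and 158498 with miR-137 (log2 fold change -0.41 ± 0.097, adjusted p = 0.0517 in edgeR). VIM had 259945 and 231788 against 290803 and 338680 (0.34 ± 0.0946, adjusted p = 0.0736). DCX had 58 and 34 reads against 33 and 41 (-0.30 ± 0.289, adjusted p = 0.498). Without miR-137 replicate 1 the called members were NES, SYNM and DCLK1, 3 in all, and without replicate 2 they were these and GFAP, 4 in all, where 39.6% and 37.7% of all genes were called. Without control replicate 1, and likewise without control replicate 2, edgeR called 0 members and none of all genes tested. NES then had a log2 fold change of 1.54 or 1.63 and DCLK1 one of -1.07 or -0.98, with adjusted p from 0.151 to 0.205. By the pairwise rule NES was higher, 1 member, where 1.51% of genes were higher and 2.88% lower. SYNM met it as well without control replicate 1 or miR-137 replicate 2, and DCLK1 without miR-137 replicate 1, 2 members each time.

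In U343 RIPSeq, 4 of 7 tested members passed the edgeR test, NES and NEFL higher and DCLK1 and GFAP lower, where 56.3% of 14866 genes changed, 27.8% lower and 28.5% higher. NEFL passed the filter on low counts only through its miR-137 libraries, so its entry to the test depended on the group where it was high. Both miR-137 libraries of this experiment had the raised interferon genes.

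NES had 5251 and 4199 reads in the U343 RIPSeq controls and 11758 and 10386 with miR-137. Its rise of 2.58-fold (log2 fold change 1.37 ± 0.107, adjusted p = 3.86e-05 in edgeR) left the groups far apart.

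DCLK1 had 4992 and 3654 reads in the controls and 1194 and 948 with miR-137. It was 3.66-fold lower, at 100.2 ± 14.7 and 27.4 ± 4.51 CPM (log2 fold change -1.87 ± 0.143, adjusted p = 3.40e-05 in edgeR). By the pairwise rule DCLK1 was lower, with odds ratios of 3.03 to 4.41, and NES higher, 2 members where 3.4% of genes were lower and 4.83% higher.

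GFAP had 226370 and 301017 reads against 127185 and 154332, and was 1.73-fold lower (log2 fold change -0.79 ± 0.223, adjusted p = 0.0184 in edgeR). This call rested on control replicate 2, without which the log2 fold change was -0.49 and the adjusted p 0.238. NEFL had 3 and 4 reads in the controls and 12 and 12 with miR-137, which edgeR called higher (adjusted p = 0.0104) and DESeq2 did not (adjusted p = 0.148). The edgeR call was lost without control replicate 1 (adjusted p = 0.0862) and without miR-137 replicate 1 (0.0564) or replicate 2 (0.0586). At these counts the ratio of summed reads was 3.76, with an exact 95% interval of 1.57 to 10.3 for counting error. VIM (log2 fold change 0.30 ± 0.194), SYNM (0.44 ± 0.307) and DCX (0.0193 ± 0.336) did not pass, with adjusted p of 0.228, 0.257 and 0.967.

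**Figure D2:**
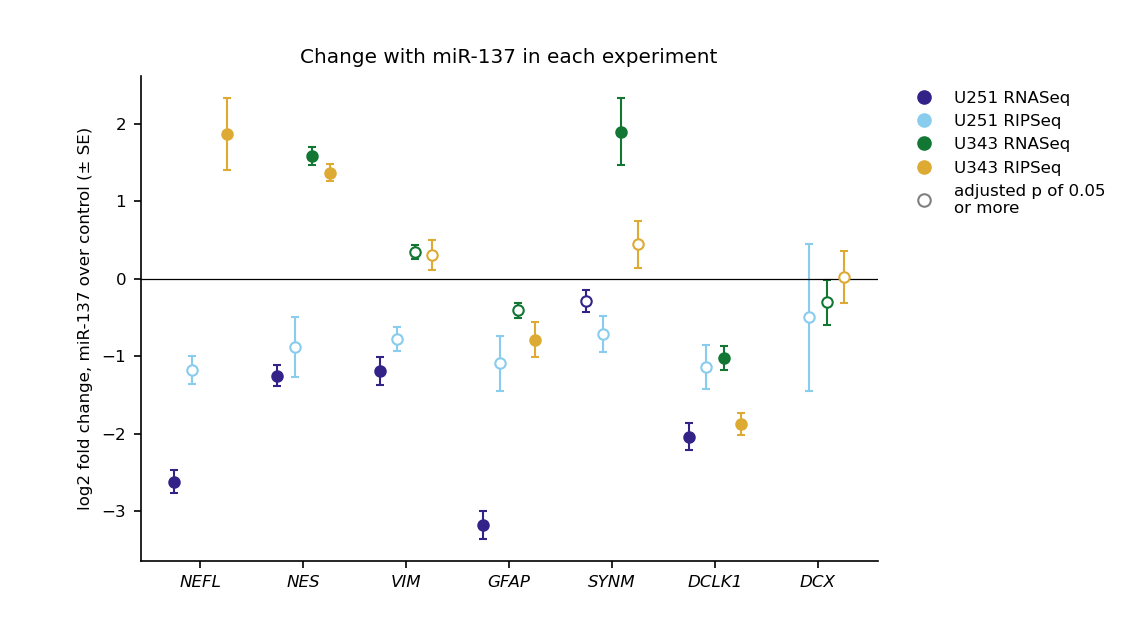
Log2 fold change of miR-137 over control with its standard error for 7 of the members, by experiment, with untested genes not drawn; filled points have an adjusted p under 0.05 in edgeR. DCLK1 lies below 0 in the 4 experiments, from -2.04 to -1.02, while NES lies at -1.25 and -0.88 in U251 and at 1.58 and 1.37 in U343.

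DCLK1 was thus lower in U251 RNASeq, U343 RNASeq and U343 RIPSeq, and had a lower mean in U251 RIPSeq that did not pass. Among the 10215 genes that were tested in the 4 experiments with at least 50 reads on average in each, 922, or 9.03%, were lower past the threshold in those same 3. The genes whose 4 log2 fold changes lay nearest to those of DCLK1, by Euclidean distance, were FITM2 (0.28), TMEM170B (0.35) and LYPLA1 (0.46).

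The change with miR-137 differed between the cell lines for most tested members. In RNASeq, the edgeR interaction of transfection with cell line passed for 7 of 8 tested members, where 25.2% of 15550 genes did, 12.7% lower and 12.5% higher in U343. Of these 7, NEFL and DCX passed the filter on low counts only through the line where they were high. The difference, U343 minus U251 on the log2 scale, was 2.82 ± 0.197 for NES (adjusted p = 0.000242) and 2.76 ± 0.176 for GFAP (adjusted p = 0.000222). It was 1.52 ± 0.163 for VIM, 2.17 ± 0.463 for SYNM and 1.01 ± 0.234 for DCLK1, so that DCLK1 fell in both lines but by more in U251. For NEFL it was 3.79 ± 0.319, resting on 9 and 21 summed reads in U343, and DCX rested on 0 and 5 summed reads in U251 and did not pass without any 1 of the 4 U251 libraries or the 2 U343 controls (adjusted p from 0.0575 to 0.0968). Leaving out each library in turn kept the calls for NEFL, NES, VIM and GFAP. SYNM did not pass without U251 miR-137 replicate 2 (adjusted p = 0.0577) or U343 control replicate 2 (0.0529), and DCLK1 did not pass without U251 control replicate 1 (0.0522), U251 miR-137 replicate 2 (0.0592), U343 control replicate 1 (0.0553) or U343 control replicate 2 (0.0531). In RIPSeq the interaction passed for NEFL, NES and VIM, 3 of 9 tested members, where 3.28% of genes did, 1.22% lower and 2.06% higher in U343. The DCLK1 difference there was -0.68 ± 0.328 (adjusted p = 0.292), with the larger fall in U343. Without U251 control replicate 1 the RIPSeq interaction passed for 4 members and 33.7% of all genes, and without U251 control replicate 2 for 5 members and 52.8%. Without any 1 of the other 6 libraries it passed for 0 members and at most 0.0178% of all genes, with adjusted p of 0.0776 to 0.145 for NEFL.

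Relative to VIM, the members did not move together. In each library VIM serves here as a reference from the same read pool, and the ratio shows unequal change only. In U251 RNASeq, NEFL had 19.7 and 18.1 reads per 100 VIM reads in the controls and 7.16 and 6.87 with miR-137. GFAP had 0.406 and 0.377 against 0.113 and 0.0858, and DCLK1 0.412 and 0.335 against 0.247 and 0.169. NES had 5.32 and 4.60 against 4.57 and 4.87, so its ratio to VIM overlapped between the groups. SYNM went the other way in U251 RNASeq, with 0.922 and 0.701 in the controls against 1.76 and 1.29. In U251 RIPSeq the GFAP ratio overlapped between the groups, with 0.188 and 0.0863 in the controls against 0.108 and 0.104. The NEFL and DCLK1 ratios did not overlap there. In U343 RNASeq GFAP went from 79.7 and 77.0 reads per 100 VIM reads to 46.2 and 46.8, and NES from 2.28 and 2.23 to 6.16 and 4.59. The 8 filament genes together took 1.05% and 1.10% of reads in the U343 RNASeq controls and 1.07% and 1.17% with miR-137.

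**Figure D3:**
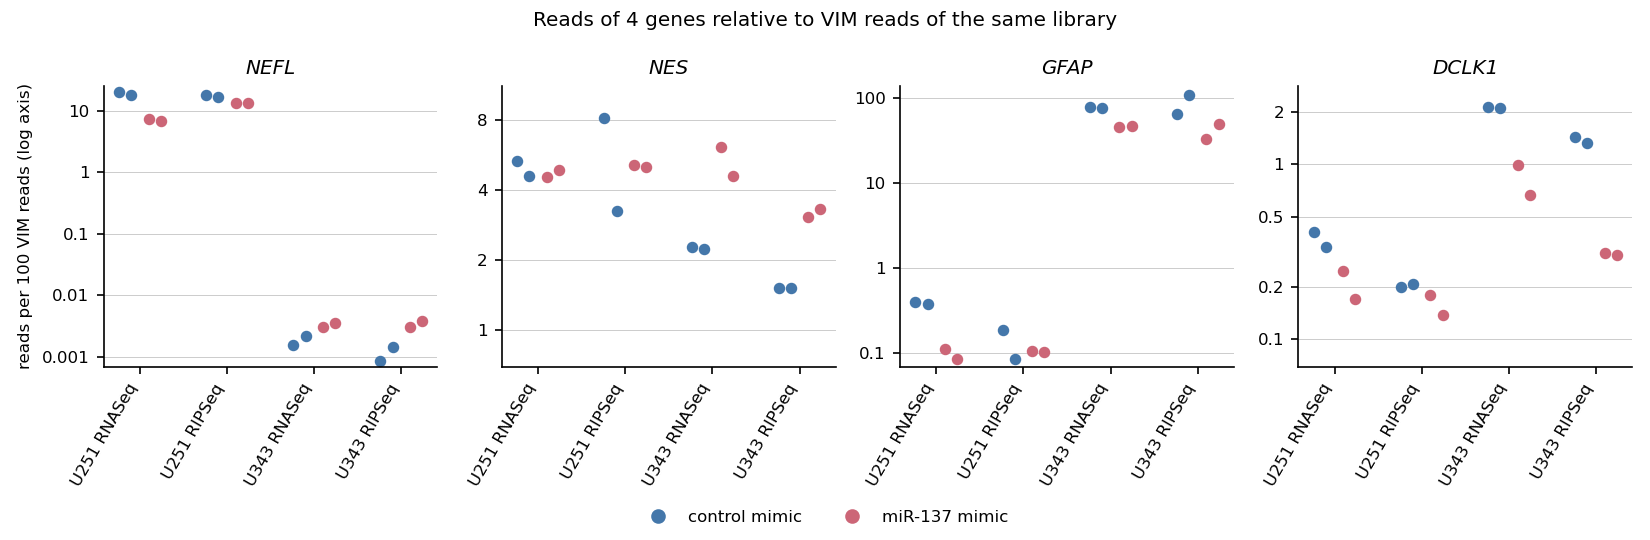
Reads of NEFL, NES, GFAP and DCLK1 per 100 VIM reads of the same library, on log axes that differ between panels; each point is a library, blue for the control mimic and red for the miR-137 mimic. NEFL falls from 19.7 and 18.1 to 7.16 and 6.87 in U251 RNASeq and only to 13.1 and 13.2 in U251 RIPSeq, where the controls have 17.9 and 16.9.

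PABP binds the poly(A) tail, and the study used its association as a readout of microRNA targeting, so the level in RIPSeq relative to RNASeq was compared within each transfection. In the U251 controls, 1 of 6 tested members differed, where 14% of genes did, 6.14% lower and 7.87% higher. GFAP was lower in RIPSeq (log2 ratio -1.57 ± 0.392, adjusted p = 0.0464 in edgeR), with an adjusted p of 0.0633 under upper-quartile normalization, 0.270 without RNASeq control replicate 1 and 0.322 without RNASeq control replicate 2. Without RIPSeq control replicate 1, 3 members and 54.9% of all genes were called, and without RIPSeq control replicate 2, 6 members and 75.9%. With miR-137, 3 of 6 tested members differed in U251, all of them higher in RIPSeq, where 65.9% of genes differed, 33.5% lower and 32.4% higher. NEFL led at 2.39-fold (log2 ratio 1.25 ± 0.0887, adjusted p = 8.41e-06 in edgeR), with means of 613 CPM in RIPSeq and 257 in RNASeq as scaled in this fit. NES (0.45 ± 0.106) and VIM (0.35 ± 0.097) followed, of which VIM did not pass without RIPSeq miR-137 replicate 1 (adjusted p = 0.0960) or replicate 2 (0.117). In the U343 controls VIM (0.41 ± 0.111) and GFAP (0.54 ± 0.173) were higher in RIPSeq, 2 of 6 tested members where 48.6% of genes differed, 24.2% lower and 24.4% higher. GFAP passed there without RIPSeq control replicate 1 only, and VIM without RNASeq control replicate 2 or RIPSeq control replicate 2 only, so that 0 to 2 members were called with a library left out. With miR-137 in U343, DCLK1 was the 1 of 7 tested members that differed, where 18.1% of genes did, 8.78% lower and 9.29% higher, and it was 2.04-fold lower in RIPSeq (log2 ratio -1.03 ± 0.188, adjusted p = 0.0303 in edgeR). The call was lost without RIPSeq miR-137 replicate 1 (adjusted p = 0.159) or replicate 2 (0.262), fits that called no gene at all.

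**Figure D4:**
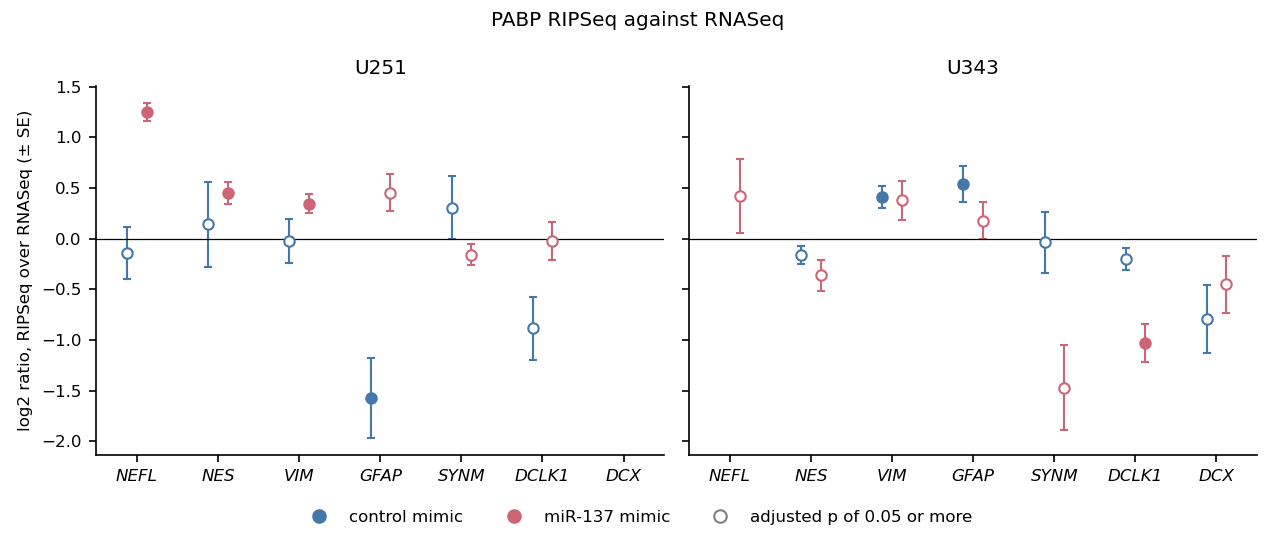
Log2 ratio of RIPSeq over RNASeq with its standard error, for the control mimic in blue and the miR-137 mimic in red; filled points have an adjusted p under 0.05 in edgeR, and genes without a point were not tested. NEFL lies at -0.14 in the U251 controls and 1.25 with miR-137, and DCLK1 at -0.20 and -1.03 in U343.

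Whether the assays responded differently to miR-137 was tested as the interaction of transfection with assay. It passed for 0 of 8 tested members in U251 and 0 of 7 in U343 in edgeR, where 0.134% (0.0281% lower and 0.106% higher) and 0.00649% (higher) of genes passed, with 3 and 1 members at an unadjusted p under 0.05, as were 18.9% and 17.6% of all genes. NEFL came nearest in U251, with a difference of RIPSeq minus RNASeq of 1.39 ± 0.229 on the log2 scale (adjusted p = 0.0653), followed by GFAP at 2.03 ± 0.424 (adjusted p = 0.0975). DESeq2 called both of these, where it called 5.1% of all genes. Without RIPSeq control replicate 1, edgeR called 4 members and 20.1% of all genes in U251, and without RIPSeq control replicate 2 it called 6 members and 58.0%, with NEFL and GFAP among them each time. In U343 the DCLK1 difference was -0.84 ± 0.242 (adjusted p = 0.202), and DESeq2 called it, where it called 3.26% of all genes. Without RNASeq miR-137 replicate 2, edgeR called DCLK1 and SYNM there, 2 members, and 19.8% of all genes.

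Genes that work with these filaments are given, by counts and by the called genes at either end, from lists chosen with earlier results of these data known. Over all genes, 29% were lower and 28.7% higher in U251 RNASeq, and 11.7% and 8.31% in U343 RNASeq. In U343 RIPSeq 27.8% were lower and 28.5% higher. In U251 RIPSeq edgeR called 1.21% and DESeq2 6.33%, and 20.1% had an unadjusted p under 0.05. Many of the list counts lie near these shares. Some listed genes with few reads passed the filter on low counts only through the group where they were high. Among 12 other intermediate filament genes, namely keratins, lamins, PRPH, DES and BFSP1, 4 were lower and 2 higher of 9 tested in U251 RNASeq, with a median log2 fold change of -0.17 beside 0.0153 for all genes. BFSP1, a lens filament gene, was lowest at -1.94 ± 0.314 and KRT10, a keratin, highest at 0.86 ± 0.230. In U343 RNASeq 2 were lower and 3 higher of 11 (median 0.0292), with DES, the desmin gene of muscle, highest at 2.39 ± 0.366. In U343 RIPSeq 3 were lower and 5 higher of 11 (median 0.31), with the keratin gene KRT17 highest at 3.67 ± 0.600. KRT17 and DES, with control means of 0.127 and 0.200 CPM there, passed the filter on low counts only through their miR-137 libraries. LMNB1, which encodes lamin B1 of the nuclear envelope, was the lowest called gene of the list in the other 3 experiments, at -2.24 ± 0.238 in U251 RIPSeq, -2.52 ± 0.189 in U343 RNASeq and -2.59 ± 0.0913 in U343 RIPSeq. LMNB1 was the 1 gene of 11 called in U251 RIPSeq.

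The list of linkers, kinases and proteases holds plectin and other proteins that crosslink filaments, kinases that phosphorylate them and calpains that cleave them. In U251 RNASeq 6 of 12 tested were lower and 1 higher, with a median log2 fold change of -0.37. Of all genes, 29% were lower and 28.7% higher there. PLEC, which encodes plectin, was highest at 1.29 ± 0.229. In U343, 3 were lower and 1 higher of 13 in RNASeq (median 0.17), and 6 lower and 4 higher in RIPSeq (median -0.20). The shares of all genes were 11.7% lower and 8.31% higher in RNASeq, and 27.8% and 28.5% in RIPSeq. AURKB, a mitotic kinase, was lowest in both, at -1.21 ± 0.0951 and -1.48 ± 0.088. In U251 RIPSeq edgeR called 0 of 12 and DESeq2 0, with 3 at an unadjusted p under 0.05.

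Among the doublecortin family and microtubule-associated proteins, 6 of 11 tested were higher and 2 lower in U251 RNASeq (median 0.44). Of all genes, 28.7% were higher and 29% lower there. MAP1A, a microtubule-associated protein of mature neurons, rose by 1.36 ± 0.142 and STMN1, which encodes the microtubule destabiliser stathmin, fell by 1.17 on the log2 scale. In U343 RNASeq 6 of 14 were higher and 2 lower (median 0.47), with STMN4 highest and STMN1 lowest at -0.61 ± 0.103. In U343 RIPSeq 5 of 13 were higher and 4 lower (median -0.07), again with STMN4 highest and STMN1 lowest at -1.22 ± 0.0819. The shares of all genes were 8.31% higher and 11.7% lower in U343 RNASeq, and 28.5% and 27.8% in U343 RIPSeq. STMN4 rose from 2 and 0 reads to 488 and 294 in RNASeq and from 1 and 0 to 218 and 95 in RIPSeq. In both assays STMN4 passed the filter on low counts only through its miR-137 libraries. In U251 RIPSeq edgeR called 0 of 11 and DESeq2 4, with 6 at an unadjusted p under 0.05 (median 0.60).

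Tubulins are the subunits of microtubules, and their isotypes did not move one way in U343. In RNASeq 4 of 10 were higher and 3 lower, and in RIPSeq 2 higher and 5 lower, with TUBB2A highest in both (1.71 ± 0.211 and 1.45 ± 0.174) and TUBA1B lowest in both (-0.78 ± 0.0760 and -1.24 ± 0.135). The shares of all genes in U343 were 8.31% higher and 11.7% lower in RNASeq, and 28.5% and 27.8% in RIPSeq. In U251 RNASeq 4 of 9 were lower and 1 higher, with TUBA1B at -1.31 ± 0.162 and TUBB2C at 0.52 ± 0.137. Of all genes, 29% were lower and 28.7% higher there. Tubulin isotypes are close in sequence, and how reads that fit several of them were counted is not given in the sources used here. In U251 RIPSeq edgeR called 0 of 9 and DESeq2 0, with 3 at an unadjusted p under 0.05.

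The interferon list was higher for 12 of 12 genes in U251 RNASeq, 10 of 12 in U251 RIPSeq, 0 of 12 in U343 RNASeq and 11 of 12 in U343 RIPSeq. Of all genes, 28.7%, 0.944%, 8.31% and 28.5% were higher, in the same order. In U251 RNASeq, RSAD2, OAS2, IRF7 and OAS1 had control means of 0.187, 0.217, 0.501 and 0.625 CPM. These genes passed the filter on low counts there only through the miR-137 libraries, where they were high. RSAD2, which encodes the antiviral protein viperin, had the largest rise wherever genes were called, with log2 fold changes of 11.87, 11.01 and 9.37. In U343 RNASeq, where the miR-137 libraries were far apart, the median was 5.59, 6 genes had an unadjusted p under 0.05 and DESeq2 called 9. The part of this response in the changes of NEFL, GFAP, VIM, NES and DCLK1 in U251 was not tested. The part of this response in the NES, SYNM and DCLK1 changes in U343 was not tested either, as only 1 miR-137 library lacked the response.

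**Figure D5:**
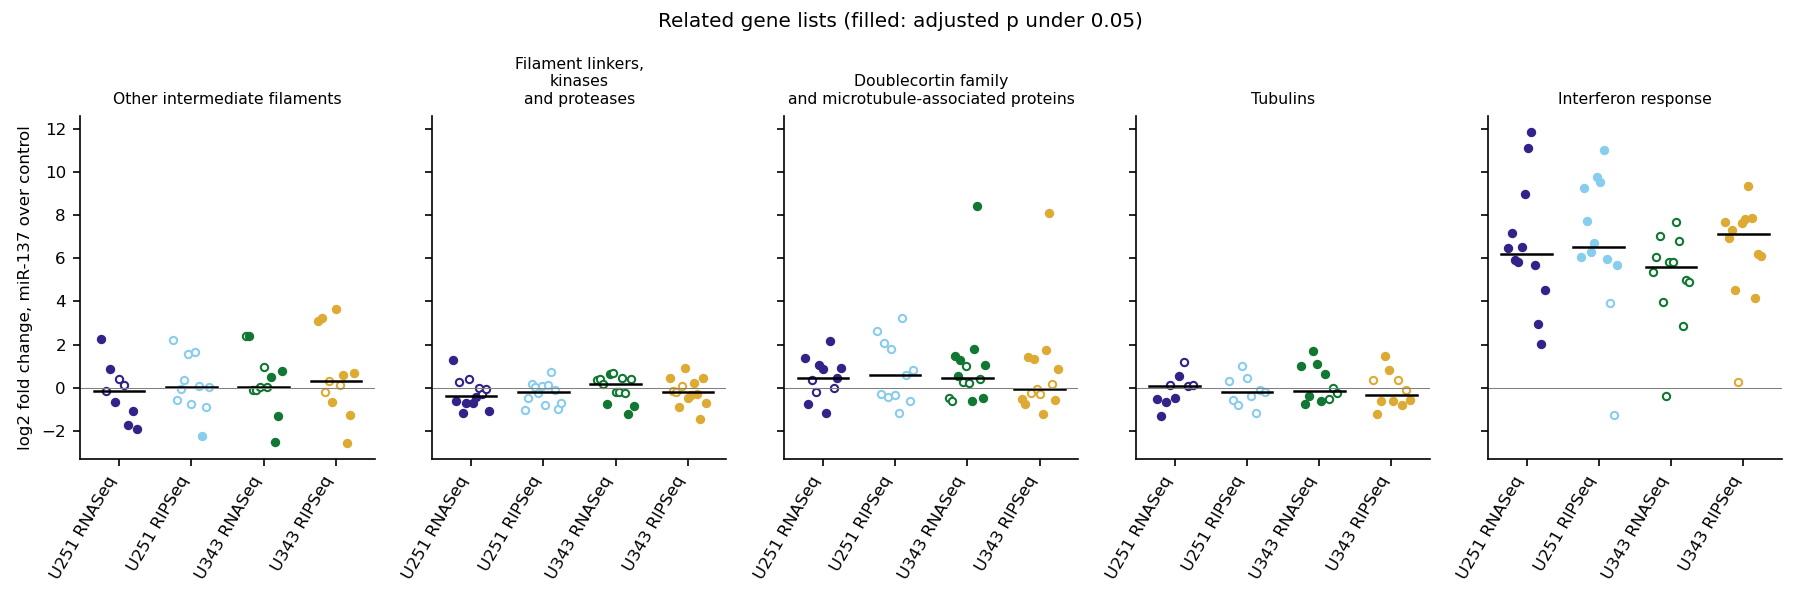
Log2 fold change of miR-137 over control for each tested gene of 5 related lists, by experiment; filled points have an adjusted p under 0.05 in edgeR and black bars are medians. The interferon medians lie between 5.59 and 7.12, and those of the other 4 lists between -0.37 and 0.60.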

How the data were processed

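The deposited files hold raw read counts per gene for 16 libraries. Per the methods, the authors used RMAP for alignment to hg18, merged the transcripts of each RefSeq gene into 1 super-transcript, and counted reads there, with no normalization. The U251 tables list SLC35E2 on 2 lines, of which the first was used. The labels gave the groups, with 2 libraries each and depths from 10156675 to 45134766 reads. Counts were analysed with edgeR 4.0.16 in R 4.3.3 (TMM, filterByExpr, quasi-likelihood F test, Benjamini-Hochberg threshold 0.05), in separate fits per experiment and in interaction fits over genes present in both tables. SE is the log2 fold change divided by the root of F. The study's Fisher rule (scipy 1.17.1, two-sided, odds ratio over 2, adjusted p under 0.001 in 4 pairs) was run beside it. DESeq2 1.42.0 and the other settings of the closing section were alternatives. The main edgeR fit and the DESeq2 fit of each comparison, and the Fisher rule in U251 RNASeq, were tried on simulated counts. The other settings were not.

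The 10 members, the lists and the tests were chosen with earlier results of these data known. Beyond the members, the text names from each list the called genes with the largest and smallest log2 fold change among those with a mean of 50 or more reads in the higher group, and the 3 genes nearest to DCLK1 over the 4 experiments. One gene that this rule gives is not reported here. Of the cell type markers it names only some astrocyte and neuron markers, and not all of the markers without reads. Transcript lengths and target sites were not analysed here, and a further U251 replicate mentioned in the methods was not used here. PCR duplicates carry no molecular identifiers, so intervals and floors (3 reads) cover counting error only.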

Additional observations from a re-analysis of the deposited data

Results flagged for a closer look

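For 7 of the 10 genes the RNASeq change with miR-137 differed between the cell lines in the edgeR interaction test, as the difference of log2 fold changes, U343 minus U251: NEFL 3.79 (adjusted p = 0.000469), NES 2.82 (0.000242), VIM 1.52 (0.00113), GFAP 2.76 (0.000222), SYNM 2.17 (0.0121), DCLK1 1.01 (0.0166) and DCX -5.94 (0.0301). The test covered 8 of the 10 genes, and 25.2% of all tested genes passed it. NEFL and DCX entered this RNASeq test only through the line where they were high. NES had opposite signs in the lines, -1.25 and 1.58. DCX had 0 control reads in U251, so its value depends on the fit's handling of 0 and is no measure of size, and it fell short of the threshold under a replicate block (adjusted p = 0.0521). In RIPSeq the same test passed for NEFL at 3.10 (adjusted p = 0.0110), NES at 2.32 (0.0423) and VIM at 1.13 (0.0482). There 3.28% of all genes passed. NEFL had under 15 reads in each U343 library. The cell line cannot be told apart from the way the cDNA was made.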

How the results depend on the processing

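Counts of members called moved by over 1.5 times under 17 of 68 alternatives that keep the libraries, and kept within it under 51. In U251 RIPSeq the count of 0 became 2 with the replicate block and 5 in the joint fit of the line. In U343 RNASeq 3 became 5 with the block, in the RIPSeq interaction with cell line 3 became 1 with the block, and with DESeq2 the interactions with assay went from 0 to 2 in U251 and to 1 in U343. In RIPSeq against RNASeq, the U251 control count of 1 became 0 with upper-quartile normalization and 2 with DESeq2, the U343 control count of 2 became 1 with DESeq2 and 1 with the block, and the U343 miR-137 count of 1 became 2 with DESeq2 and 0 with the block. By the pairwise rule with an odds ratio over 1.5, the counts of 3, 1 and 1 in U251 RNASeq, U251 RIPSeq and U343 RNASeq became 5, 3 and 3, and with TMM-scaled totals those in RNASeq became 5 and 2. The numbers of all genes called also changed under these settings, not always in the same direction. The cause was not tested.

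Leaving out 1 library at a time gave ranges of 5 to 6 members in U251 RNASeq, 0 to 10 in U251 RIPSeq, 0 to 4 in U343 RNASeq and 3 to 4 in U343 RIPSeq. The interactions ranged from 0 to 6 (assay, U251), 0 to 2 (assay, U343), 4 to 7 (cell line, RNASeq) and 0 to 5 (cell line, RIPSeq). RIPSeq against RNASeq ranged from 0 to 6 (U251 control), 2 to 4 (U251 miR-137), 0 to 2 (U343 control) and 0 to 2 (U343 miR-137), U343 against U251 from 6 to 7, and the pairwise rule from 3 to 4, 1 to 4, 1 to 2 and 2 to 2 in the order of experiments above. A lone library was assumed to vary like the other group. Values that changed sign were all uncalled in the main analysis: the VIM ratio of RIPSeq to RNASeq in U251 controls became 0.0627 under upper-quartile normalization, and with a library left out it ran from -0.22 to 0.0926, NES from -0.51 to 0.51 (called at both ends), DCLK1 with miR-137 in U251 from -0.21 to 0.16, SYNM in U343 controls from -0.60 to 0.38, the assay interactions of NES in U251 from -0.0265 to 1.03 and VIM in U343 from -0.23 to 0.11, and the RIPSeq cell line interaction of GFAP from -0.13 to 0.68.

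The replicate numbers mark no shared culture in the labels and were not taken to pair the samples. With 2 pairs per comparison the correlation of deviations was 0.03, -0.09, 0.14 and 0.41 in the 4 experiments. The correlation was -0.25 between U343 control RNASeq and RIPSeq, and the crossed block, chosen after seeing the data, called 4051 lower and 4018 higher genes there against 3606 and 3625. Over all genes of U251 RNASeq, the median of the log2 fold changes moved from 0.0153 to 0.16 with upper-quartile normalization, 0.17 with DESeq2 and 0.16 without a filter. All genes called in U251 RIPSeq numbered 37 lower and 133 higher, against 325 and 516 with DESeq2, 273 and 529 with the block, 5 and 54 without a filter and 1213 and 1142 in the joint fit. Likewise the joint fit gave 1336 and 1615 in U251 RNASeq (3780 and 3749) and 2768 and 2265 in U343 RNASeq (1764 and 1254). DESeq2 gave 335 and 307 for the assay interaction in U251 (4 and 15), 235 and 129 in U343 (0 and 1), 650 and 1189 for the cell line interaction in RIPSeq (195 and 329) and 1570 and 1503 for RIPSeq against RNASeq in U251 controls (813 and 1042). The block gave 0 for both assay interactions, 54 and 86, and 2101 and 1935 in the same order, and 0 for U343 miR-137 (1326 and 1404). Levels per transcript length were not run, as no transcript lengths were at hand.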
